A study of Homo sapiens with 5 samples.

Results

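The 82 genes described here encode the protein subunits of the cytosolic ribosome. They were chosen by symbol alone: RPL or RPS followed by a number, with the suffixes X, Y, A or L and any further digits, together with RPLP0, RPLP1, RPLP2 and RPSA. Of the 12474 genes in the matrix 82 fit, 50 of the large and 32 of the small subunit. A further 12 symbols begin alike and were left out, among them the kinase genes named after their substrate RPS6 and the RPL36A copy RPL36AL.

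The cells were MDA-MB-468, an established triple-negative breast cancer line with an amplified EGFR gene, carrying a library of lentiviral lineage barcodes under puromycin selection. Both untreated libraries (D0, replicates 1 and 2) and the 3 libraries of cells exposed to 250 nM afatinib for 3, 6 or 9 days (D3, D6 and D9) came from the same barcoded population, and each treated day had 1 library. Afatinib is a covalent inhibitor of EGFR and ERBB2. Nothing in the labels tells whether D0 replicates 1 and 2 were grown apart, so the spread between them may be technical. The tests took the 3 treated days as replicates of treatment. Their p-values therefore rest on that spread and on the differences between days.

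A ribosome holds 1 copy of nearly every one of these proteins, with the stalk proteins as the main exception, and growing cells spend a large part of their translation on making them. In mammals most of the mRNAs start with a run of pyrimidines at the cap, the 5′ terminal oligopyrimidine tract, through which mTOR and the binding protein LARP1 adjust their translation and stability to growth signals. Many other genes of the translation machinery share the tract, such as EEF1A1, EEF2, PABPC1 and TPT1. Ribosomal protein mRNAs are short, abundant and long-lived, and their many processed pseudogenes make them hard to count without loss.

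The pyrimidine run can be read in the bases around the start sites. A window of 30 bases, 10 before the RefSeq start and 20 from it, was available for 66 of the 82 genes on GRCh38.p14. On the gene's own strand 50 of the 66 windows (75.8%) held an unbroken run of at least 8 letters that are C or T, against 12.7% of the windows of all 35116 promoters. The sequences shown have the longest run in capitals. They come from 4 members with low and 3 with high D9 log2 ratios to untreated, and from the paralogues RPS27L and RPL26L1. By those ratios, described later, RPS29 was the lowest member at D9 and RPS4X the highest.

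RPS29 (chr14:49598691-49598720, minus strand): agcgcgcagctggcagcggtggttgTTTCT
RPS27 (chr1:153990752-153990781, plus strand): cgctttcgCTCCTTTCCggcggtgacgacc
RPL38 (chr17:74203668-74203697, plus strand): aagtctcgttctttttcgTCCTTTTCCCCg
RPL39 (chrX:119791611-119791640, minus strand): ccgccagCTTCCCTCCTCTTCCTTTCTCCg
RPLP0 (chr12:120201092-120201121, minus strand): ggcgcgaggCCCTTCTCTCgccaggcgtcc
RPS3 (chr11:75399508-75399537, plus strand): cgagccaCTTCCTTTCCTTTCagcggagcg
RPS4X (chrX:72277229-72277258, minus strand): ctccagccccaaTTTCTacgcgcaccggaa
RPS27L (chr15:63157458-63157487, minus strand): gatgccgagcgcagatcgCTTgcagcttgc
RPL26L1 (chr5:172958719-172958748, plus strand): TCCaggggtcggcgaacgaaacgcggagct

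RPS27, RPL38 and RPL39 were among the members with the lowest D9 ratios and RPLP0 and RPS3 among those with the highest, and their windows carry a run of at least 8. RPS29, the lowest, and RPS4X, the highest, each have a longest run of 5 letters, so windows with and without the run stood at both ends. RPS27L and RPL26L1 are paralogues of RPS27 and RPL26 whose windows have a longest run of 3 letters. RPL26 itself has a run of 14. By coding length, the run was present in 7 of 9 windows of members with less than 300 coding nucleotides, in 29 of 33 with 300 to 500, and in 14 of 24 with more than 500. A match is a description of the letters at an annotated start, not a measured start or a bound factor.

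The libraries held 478 and 1063 untreated cells and 479, 942 and 1139 cells at D3, D6 and D9, with 14517579 to 28148379 counts each. The epithelial markers KRT8, KRT18, KRT19, EPCAM and CDH1 and EGFR were detected in every library. PTPRC, CD68, PECAM1, VWF and PDGFRB were not among the genes of the matrix. The fibroblast gene COL1A1 lay between 2.09 and 7.78 CPM (each library's counts scaled to a common total), here without TMM factors. All later levels in CPM use TMM factors. D3 and D6 shared 1 cell barcode and no other libraries shared any. D3 and D6 stood apart in mitochondrially encoded transcripts, which took 17.2% and 16.0% of counts against 7.25% and 7.80% in the untreated libraries and 8.82% at D9. At D9 members with short coding sequences and other genes with transcripts under 500 nucleotides stood apart, as given with the results.

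A smaller share of the cells' transcripts came from the 82 genes under afatinib. They made up 18.8% of all counts in untreated D0 replicate 1 (95% Wilson interval 18.78 to 18.81) and 18.3% in replicate 2 (18.33 to 18.36). At D3 the share was 13.2% (13.16 to 13.20), at D6 14.2% (14.17 to 14.21) and at D9 13.96% (13.95 to 13.98). All 3 treated libraries lay below both untreated ones, and on average the share fell by 4.79 percentage points. These intervals cover counting error only, and the share of the whole list was given no test.

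Cell by cell, the fall took different forms on different days. The median cell held 19.1% and 18.4% in D0 replicates 1 and 2, then 7.87% at D3, 10.5% at D6 and 14.1% at D9. The cells between the quartiles spread from 5.60 to 16.0% at D3 and from 6.57 to 17.5% at D6, but only from 12.5 to 15.5% at D9. The lower quartile over all untreated cells was 16.5%, and 78.5% of D3 cells (95% exact interval 74.5 to 82.1), 69.6% of D6 cells (66.6 to 72.6) and 86.3% of D9 cells (84.2 to 88.2) fell below it. These intervals count cells within a library and do not cover the spread between libraries. D3 and D6 thus mixed cells near the untreated share with cells far under it, while D9 cells sat close together at an intermediate share.

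The mitochondrial share moved with that spread. Cells with less than 10% mitochondrial counts made up 79.3% and 80.9% of untreated cells, then 17.7% at D3, 19.96% at D6 and 75.2% at D9. Within these cells the median ribosomal protein share was 19.6% and 18.8% untreated, 18.6% at D3, 19.3% at D6 and 14.6% at D9. In the cells with 10% or more it was 12.8% and 14.2% untreated, 7.11% at D3, 8.32% at D6 and 11.4% at D9. Cells of low mitochondrial share at D3 and D6 therefore held a ribosomal protein share within the range of the untreated medians or within 0.2 percentage points below it, and those at D9 did not.

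**Figure D1:**
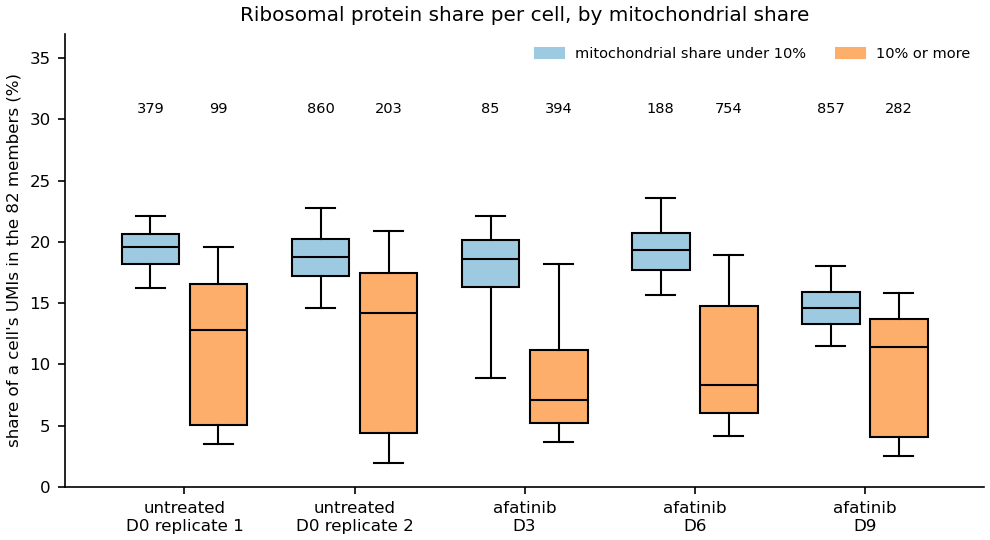
Share of a cell's UMIs in the 82 ribosomal protein genes (y axis, percent) for the 5 libraries, split at a mitochondrial share of 10%. Boxes span the quartiles of the cells with the median as a line, whiskers reach the 5th and 95th percentiles, and the number above each box counts its cells; the cells of low mitochondrial share have medians of 18.6 to 19.6% in every library but D9, where the median is 14.6%.

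Within every library the 2 shares ran against each other over cells, with Pearson's r between -0.79 and -0.87. Cells with more UMIs had the larger ribosomal protein share, with r of 0.51 to 0.68 against the logarithm of the UMI total. Both shares come from the same UMI total, so part of the negative relation is arithmetic, and with mitochondrial counts left out of the denominator r still ran from -0.69 to -0.82. The part of mitochondrial share and depth in the fall was not tested. Cells with a UMI of the proliferation genes MKI67 or TOP2A had the lower median share in all 5 libraries, from 18.85% against 19.8% in untreated D0 replicate 1 to 9.04% against 14.2% at D6.

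Gene by gene, counts summed per library were compared by edgeR's quasi-likelihood test, 3 afatinib libraries against 2 untreated ones, over 12145 genes with Benjamini-Hochberg adjustment. Of the 82 genes 15 fell (adjusted p under 0.05) and 0 rose, against 10.1% of all genes tested that fell and 13.1% that rose. At an unadjusted p under 0.05 there were 41, a count for which no share of all genes is given, so it shows no excess. The median log2 fold change of the 82 was -0.63 and that of all genes 0.05, and 79 of the 82 values were below 0. In 58 of the 82 every afatinib library lay below both untreated libraries, against 26.0% of all genes. Among the 15 that fell were RPS29, RPS26, RPS27L, RPS27A, RPL26 and RPL22. The large subunit gave 8 of 50 and a median of -0.57, the small subunit 7 of 32 and a median of -0.67.

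The calls rested on few libraries. Of the fits in this paragraph, the share of all genes called is given only without D9 and in cells of low mitochondrial share. For counts at an unadjusted p no share of all genes is given. Without either one of the untreated libraries 0 of the 82 were called by edgeR, with 9 and 11 at an unadjusted p under 0.05, and leaving out D3 or D6 left 3 or 9. Without D9 the number was 80 of 82, against 27.3% of all genes that fell and 28.9% that rose in that fit, and the 2 others were RPLP0 and RPL22L1. In cells of low mitochondrial share 0 of 82 fell and 0 rose by edgeR, against 8.44% and 9.24% of all genes, and the median was -0.26. At an unadjusted p under 0.05 there were 4 in these cells.

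**Figure D2:**
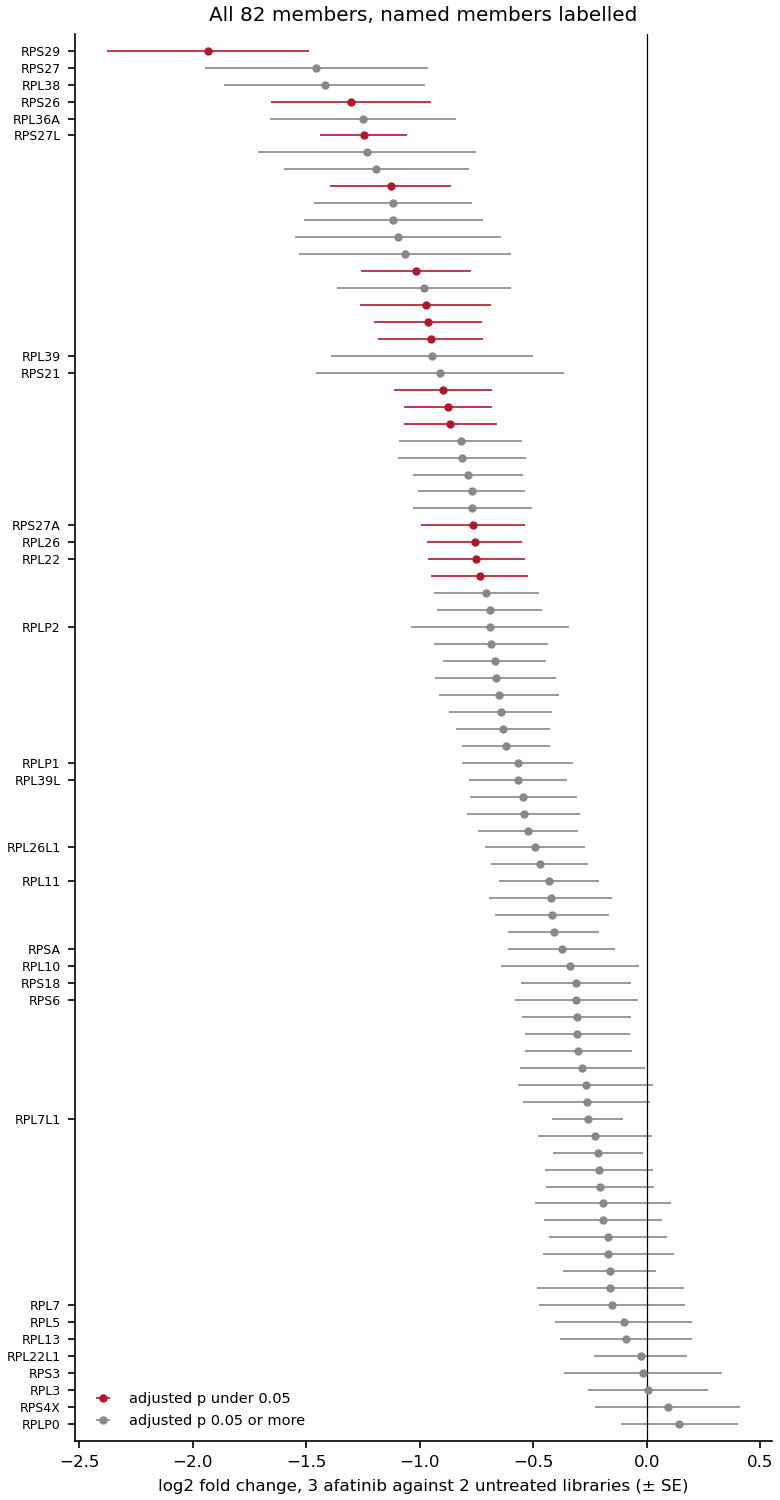
Log2 fold change of each of the 82 genes between 3 afatinib and 2 untreated libraries (x axis), with bars of 1 standard error from the edgeR fit; genes are ordered by the value, the 29 named genes are labelled and red marks an adjusted p under 0.05. Values run from -1.93 for RPS29 to 0.14 for RPLP0, and the 15 red genes all lie below 0.

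RPS29, a zinc-binding protein of the small subunit (ENSG00000213741, chr14:49570984-49599164 in the GENCODE 44 annotation of GRCh38), had the lowest value. Its level was 3150 and 3046 CPM untreated, 1094 at D3, 999 at D6 and 340 at D9. The groups did not overlap, and the log2 fold change was -1.93 ± 0.45 (standard error, adjusted p = 0.021 by edgeR). RPS26, which lines the mRNA exit channel of the small subunit, went from 1529 and 1480 CPM to 687, 816 and 330, a log2 fold change of -1.30 ± 0.35 (adjusted p = 0.035 by edgeR). For both, D9 was lower than D3 and D6 by more than the gap between the untreated libraries.

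The other genes among the 5 lowest missed the threshold with changes of similar size. RPS27, another zinc-binding protein of the small subunit, was at 5303 and 5150 CPM untreated and at 2418, 2600 and 700 CPM on D3, D6 and D9. Its log2 fold change was -1.46 ± 0.49 (adjusted p = 0.068 by edgeR). RPL38, a large-subunit protein whose loss in mice gives skeletal patterning defects, was at 2571 and 2501 CPM untreated and at 1223, 1227 and 395 CPM, with -1.42 ± 0.44 (adjusted p = 0.054 by edgeR). RPL36A, a large-subunit protein near the exit site for tRNA, was at 2294 and 2220 CPM untreated and at 1104, 1302 and 442 CPM, with -1.25 ± 0.41 (adjusted p = 0.062 by edgeR). In each of them D3 and D6 were close to each other and D9 was far lower.

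The 5 genes with the highest values were RPLP0 (0.14 ± 0.26), RPS4X (0.09 ± 0.32), RPL3 (0.00 ± 0.26), RPS3 (-0.02 ± 0.35) and RPL22L1 (-0.03 ± 0.21), none of them past the threshold. RPS3, a small-subunit protein at the mRNA entry channel with a second role in DNA repair, was at 4271 and 4133 CPM untreated, at 3067 and 3223 at D3 and D6 and at 6167 at D9. RPS4X, the X-linked copy of a protein with a Y-linked twin, was at 2530 and 2449 CPM untreated, at 1975 and 2193 at D3 and D6 and at 3788 at D9. RPL3, which reaches the peptidyl transferase centre, was at 2096 and 2043 CPM untreated, at 1747 and 1781 and then at 2694 CPM. All 3 were under both untreated libraries at D3 and D6 and over both at D9, so that a value averaged over the treated days was near 0. Without D9 the fit gave -0.26 for RPS4X (adjusted p = 0.013 by edgeR) and -0.23 for RPL3 (adjusted p = 0.017).

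**Figure D3:**
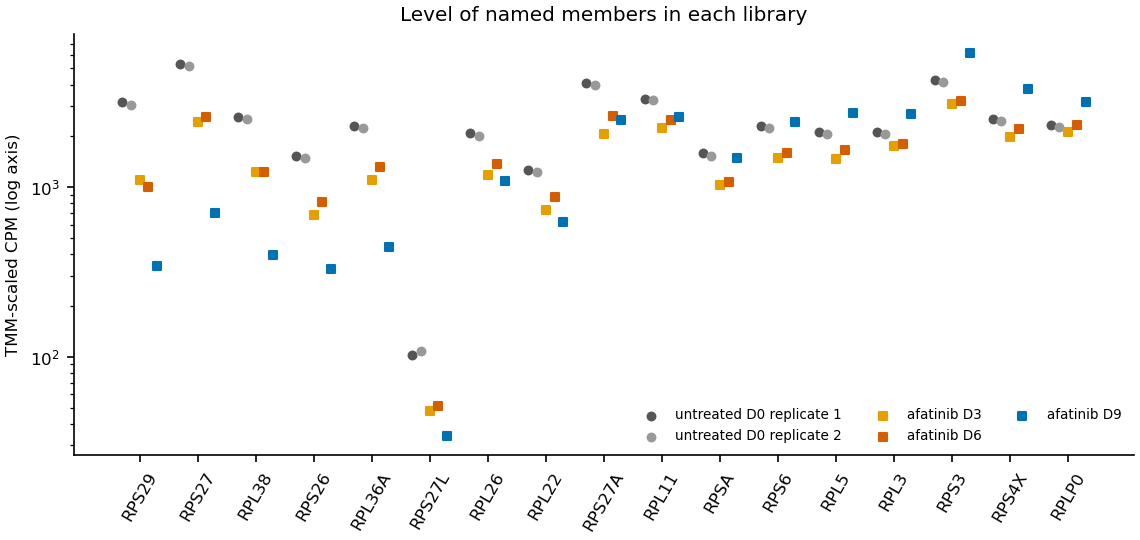
TMM-scaled CPM (y axis, log scale) of 17 of the named genes in each of the 5 libraries; circles are the untreated libraries and squares the afatinib days, 1 point per library with no error. From RPS29 to RPS27L on the left D9 is the lowest point, and from RPL5 to RPLP0 on the right it is the highest, with RPS3 at 6167 CPM.

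The proteins of the stalk, which recruits translation factors to the large subunit, did not move as 1 unit. RPLP0, the base of the stalk (ENSG00000089157, chr12:120196699-120201235), was at 2318 and 2268 CPM untreated and at 2114, 2304 and 3178 CPM on D3, D6 and D9. RPLP1 was at 3856 and 3736 CPM untreated and at 2514, 3034 and 2124 CPM, with a log2 fold change of -0.57 ± 0.24 (adjusted p = 0.13 by edgeR). RPLP2, its partner in the dimers, was at 2029 and 1981 CPM untreated and at 1350, 1675 and 700 CPM, with -0.69 ± 0.35 (adjusted p = 0.18 by edgeR). At D9 RPLP0 stood above and its partners below the untreated libraries.

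RPL5 and RPL11 join the 5S rRNA before it enters the large subunit and, when free, bind MDM2 and restrain its action on p53. RPL5 was at 2116 and 2060 CPM untreated and at 1467, 1650 and 2720 CPM on D3, D6 and D9, and RPL11 at 3307 and 3241 CPM untreated and at 2216, 2472 and 2596 CPM. Neither passed the test, with log2 fold changes of -0.10 ± 0.30 and -0.43 ± 0.22 (adjusted p = 0.83 and 0.185 by edgeR). RPS6, the substrate of the S6 kinases, was at 2289 and 2229 CPM untreated and at 1477, 1587 and 2400 CPM (-0.31 ± 0.27, adjusted p = 0.43). RPSA, also known as a laminin-binding protein, was at 1582 and 1525 CPM untreated and at 1028, 1074 and 1491 CPM (-0.38 ± 0.24, adjusted p = 0.28). All 4 were below both untreated libraries at D3 and D6, and at D9 RPL5 and RPS6 were above both and RPL11 and RPSA below both. RPS27A, made as a fusion to ubiquitin, fell from 4104 and 4006 CPM to 2044, 2622 and 2490 CPM (-0.77 ± 0.23, adjusted p = 0.048 by edgeR), with similar levels on all 3 days.

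Paralogues allow members of nearly equal coding length to be set side by side. RPS27L, a p53-responsive copy of RPS27 (ENSG00000185088, chr15:63125872-63158021), fell from 102 and 108 CPM to 47.5, 51.4 and 33.9 CPM, a log2 fold change of -1.25 ± 0.19 with the smallest adjusted p of the 82 (0.0060 by edgeR). RPS27L and RPS27 have the same coding length of 252 nucleotides, and their log2 ratios were -1.14 and -1.11 at D3, -1.03 and -1.01 at D6 and -1.63 and -2.90 at D9. The pair thus moved alike on the first days and RPS27 was lower on the last.

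RPL39L, a copy of RPL39 known from the testis and from some cancers, was at 94.1 and 100 CPM untreated and at 53.9, 57.0 and 85.4 CPM on D3, D6 and D9. RPL39 was at 4520 and 4380 CPM untreated and at 2696, 3240 and 997 CPM. Both code for the same length of 153 nucleotides, yet their log2 ratios at D9 were -0.19 and -2.16. The canonical transcript of RPL39L has 729 nucleotides and that of RPL39 has 390.

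RPL26L1 was at 195 and 199 CPM untreated and at 120, 118 and 182 CPM on D3, D6 and D9, with a log2 fold change of -0.49 ± 0.22 (adjusted p = 0.14 by edgeR). RPL26 fell from 2078 and 2000 CPM to 1169, 1357 and 1089 CPM (-0.76 ± 0.21, adjusted p = 0.037 by edgeR). With 435 coding nucleotides each, the pair had D9 log2 ratios of -0.12 and -0.90, and transcripts of 722 and 528 nucleotides. In both this pair and RPL39L with RPL39 the copy with the longer transcript was closer to untreated at D9. So it was for RPS27L and RPS27 (6110 and 352 nucleotides) and for RPL7L1 and RPL7 (4499 and 1233 nucleotides, D9 ratios of -0.13 and 0.40). RPL22L1 and RPL22, with 366 and 384 coding nucleotides, went the other way, with transcripts of 1902 and 2061 nucleotides and D9 log2 ratios of -0.045 and -1.01. RPL36A and RPL36AL, with 318 coding nucleotides each, also did, with transcripts of 761 and 676 nucleotides and D9 ratios of -2.35 and -0.94. In all of these pairs the gene of lower level was closer to untreated at D9. Over the 82 members Spearman's rho between the length of the canonical transcript and the D9 ratio was 0.23.

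RPL22L1, the copy that takes the place of RPL22 when that gene is lost, was at 151 and 145 CPM untreated and at 114, 178 and 143 CPM on D3, D6 and D9. RPL22 fell from 1266 and 1229 CPM to 735, 870 and 618 CPM (-0.75 ± 0.21, adjusted p = 0.041 by edgeR). At D6 RPL22L1 was above both untreated libraries, with a log2 ratio of 0.27, and RPL22 below, with -0.52. RPL7L1, a copy of RPL7 tied to early steps of large-subunit assembly, was at 203 and 205 CPM untreated and at 163, 162 and 186 CPM, a change of -0.26 ± 0.16 (adjusted p = 0.26 by edgeR). RPL7 was at 1124 and 1092 CPM untreated and at 695, 836 and 1457 CPM, with -0.15 ± 0.32 (adjusted p = 0.76 by edgeR). RPL36AL, outside the rule, fell from 479 and 464 CPM to 253, 339 and 246 CPM (-0.75 ± 0.20, adjusted p = 0.032 by edgeR). The copies and their parents can share reads, so the split between the members of a pair is uncertain.

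In UMI counts, which count tagged molecules and were not divided by length, the mean levels of the 82 genes ran from 68.5 CPM for RPS27L to 6381 CPM for RPL13. RPL13 was at 6699 and 6555 CPM untreated and at 5010, 5592 and 8046 CPM on D3, D6 and D9. RPL10 was at 4909 and 4771 CPM untreated and at 2930, 3342 and 5214 CPM. RPS18 was at 4989 and 4795 CPM untreated and at 3968, 4469 and 3385 CPM. These 3 had the highest means; RPL13 and RPL10 were above untreated at D9, and RPS18 was below it on every day. RPL39L and RPL22L1 had the lowest means beside RPS27L.

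Each day was also set against the mean of the untreated libraries. With 1 library a day there is no test, and a member was counted when its log2 ratio, with 0.1 CPM added to both levels, was at least 0.5 in size. At D3 all 82 ratios were below 0, 68 were at -0.5 or less and 0 at 0.5 or more, against 17.2% and 20.8% of all genes, with a median of -0.68. At D6 80 were below 0, 37 were past the fold downwards and 0 upwards, against 19.3% and 21.4%, with a median of -0.47. At D9 60 were below 0, 47 were past the fold downwards and 2 upwards (RPS4X at 0.61 and RPS3 at 0.55), against 16.8% and 18.2%, with a median of -0.72. At D3 and D6 nearly all members were below untreated, and 78 of the 82 were higher at D6 than at D3. The ratios ran from -1.50 to -0.12 at D3, from -1.63 to 0.27 at D6 and from -3.19 to 0.61 at D9.

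In cells of low mitochondrial share, the counts past the fold downwards were 8 at D3, 3 at D6 and 47 at D9, against 11.0%, 16.0% and 18.7% of all genes. The medians of the 82 log2 ratios were then -0.20, 0.01 and -0.75. These cells were 85 at D3 and 188 at D6, against 857 at D9. The part of mitochondrial share in the D3 and D6 values was not tested; at D9 the ratios were as low in the cells of low mitochondrial share as in all cells.

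The D9 ratios followed the length of the coding sequence. Over the 82 genes Spearman's rho between coding length and the D9 log2 ratio was 0.87 and Pearson's r with the logarithm of the length 0.79. For D3 the rho was 0.62 and for D6 0.44. These describe genes of the same libraries, which are not independent replicates. The 11 members with less than 300 coding nucleotides had a median log2 ratio of -2.42 at D9, against -0.85 at D3 and -0.75 at D6. The 40 with 300 to 500 had -1.01 at D9, -0.76 at D3 and -0.49 at D6. The 31 with more than 500 had 0.11 at D9, -0.54 at D3 and -0.41 at D6.

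**Figure D4:**
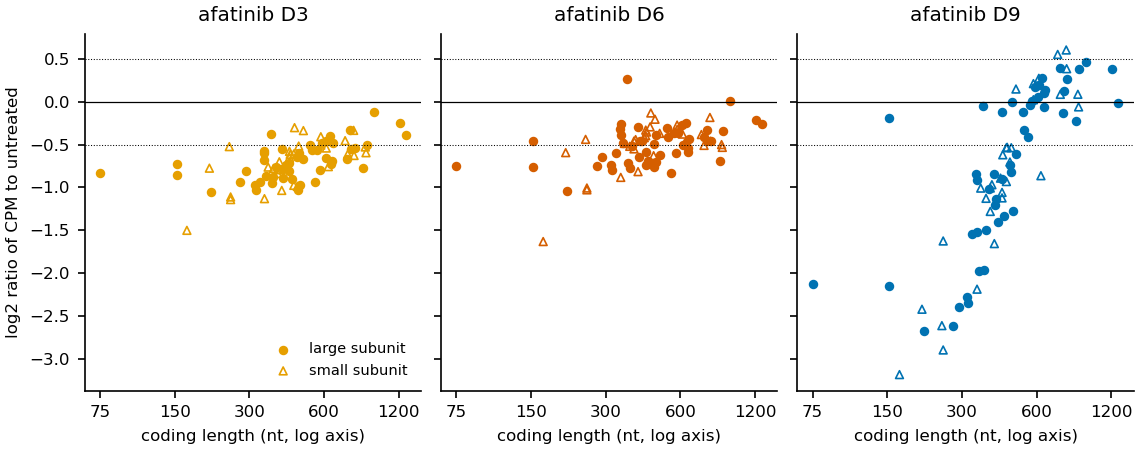
Log2 ratio of each of the 82 genes to the untreated mean (y axis) against the coding length of its canonical transcript (x axis, nucleotides, log scale), at D3, D6 and D9; filled circles are large-subunit and open triangles small-subunit genes, dotted lines mark 0.5 in size. At D9 the points climb from -3.19 for RPS29 to 0.61 for RPS4X, and at D3 and D6 most lie between -1 and 0.

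RPL39L (-0.19) was the exception at D9 among the 11 shortest, the only one above -1.6. Of the 31 longest 1 was past the fold downwards. RPS21, a small-subunit protein of 249 coding nucleotides, was with RPS27 and RPS29 among the 3 genes with the largest difference between D3 and D9: it was at 3331 and 3267 CPM untreated, at 2295 and 2433 CPM at D3 and D6 and at 538 CPM at D9. None of the 15 genes that fell across the days had more than 500 coding nucleotides, 13 had 300 to 500 and 2 had less than 300. The 3 length classes were set after the values had been seen.

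The same shift could be followed in single cells, within the ribosomal protein counts alone. The 11 shortest members held a median of 17.0% of a cell's ribosomal protein UMIs in both untreated libraries, then 14.2% at D3, 13.9% at D6 and 4.41% at D9. Every one of the 1139 D9 cells was below the 5th percentile of the untreated cells, 14.9% (95% exact interval 99.7 to 100%), as were 65.6% of D3 cells (61.1 to 69.8) and 77.6% of D6 cells (74.8 to 80.2). Cells of a library are not replicates of a day, so the intervals leave out the spread between libraries. The 31 longest held medians of 40.3% in both untreated libraries, then 47.6% at D3, 44.1% at D6 and 64.3% at D9. In D9 cells of low and of higher mitochondrial share the short members held 4.35% and 4.76%, so this shift was present on both sides of that split.

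**Figure D5:**
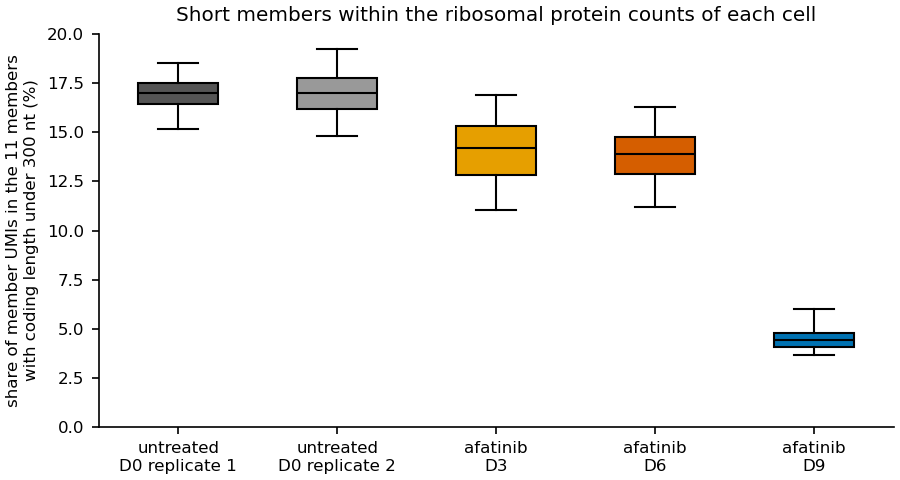
Share of a cell's ribosomal protein UMIs that came from the 11 members with less than 300 coding nucleotides (y axis, percent) in each library; boxes span the quartiles of the cells with the median as a line and whiskers reach the 5th and 95th percentiles. The medians are 17.0% in both untreated libraries and 4.41% at D9, where the whole box lies below the whiskers of the other libraries.

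Short transcripts outside the ribosome were also low at D9. Of the other genes whose mean was 20 CPM or more, the 53 with a canonical transcript under 500 nucleotides had a median log2 ratio of -1.81 at D9, -0.89 at D3 and -0.69 at D6. The 483 of 500 to 1000 nucleotides had -0.02, -0.56 and -0.49, and the 5800 longer ones had 0.05, -0.06 and -0.04. By coding length the 186 other genes under 300 nucleotides had a median of -0.46 at D9, against -2.42 for members. The 544 other genes with 300 to 500 coding nucleotides had -0.03, against -1.01 for members. Spearman's rho between coding length and the D9 ratio was 0.045 over 6219 other genes. It was 0.22 over the 676 with a mean of 200 CPM or more, so the relation was far weaker than among members. With an offset for coding length fitted over all genes, an alternative chosen after seeing the data, the median of the 82 log2 ratios became -0.30 (D3), -0.11 (D6) and -0.67 (D9). The members' rho between coding length and the D9 ratio was then 0.80. The part of transcript length in the D9 values was not tested further, and with 1 library at D9 the day and the library cannot be told apart.

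To separate the balance among members from the fall of the whole group, the fit was repeated with the summed counts of the 82 genes as the library size. RPS29 (-1.35 ± 0.42, adjusted p = 0.022) and RPS27L (-0.68 ± 0.20, adjusted p = 0.018) fell relative to the pool, and RPLP0 (0.71 ± 0.24, adjusted p = 0.029) and RPL22L1 (0.53 ± 0.18, adjusted p = 0.034) rose, by edgeR. Of all genes 2.87% fell and 54.8% rose by that measure, since the pool itself went down. Among genes of at least 20 CPM RPS27 (-0.88) and RPL38 (-0.84) were next lowest, and RPS4X (0.66) and RPL3 (0.57) next highest, without passing. The other 78 genes did not pass in either direction.

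Other genes of the translation machinery were read from lists. Among all genes tested 10.1% fell and 13.1% rose. Of the 4 ribosome genes outside the rule, RPL36AL fell and 0 rose. FAU (-0.68), which carries RPS30, and RACK1 (0.00), a scaffold on the small subunit, did not pass. Of the 10 other mRNAs known for a pyrimidine tract 0 fell and 0 rose, with a median log2 fold change of 0.02. TPT1, the translationally controlled tumour protein, had the highest D9 ratio of the 10. It was at 2893 and 2788 CPM untreated and at 2503, 2946 and 5231 CPM on D3, D6 and D9. NPM1 had the lowest log2 fold change of the 10 (-0.72 ± 0.27, adjusted p = 0.092 by edgeR). Its levels were 2383 and 2331 CPM untreated and 1162, 1226 and 1914 CPM on D3, D6 and D9. Of the 6 elongation factor genes EEF1E1 fell (-0.76 ± 0.22, adjusted p = 0.041 by edgeR), which encodes a part of the tRNA synthetase complex, and 0 rose, with a median of 0.04. EEF2, with the highest log2 fold change of the 6, was at 556 and 557 CPM untreated and at 639, 760 and 804 CPM (0.40 ± 0.19, adjusted p = 0.17 by edgeR).

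Of the 13 genes of initiation factor eIF3, 1 fell and 0 rose, where 10.1% of all genes fell and 13.1% rose. The gene that fell was EIF3J, the loosely held subunit that takes part in ribosome recycling. Its levels were 249 and 259 CPM untreated and 93.7, 85.0 and 57.7 CPM on the treated days in order, a log2 fold change of -1.69 ± 0.22 (adjusted p = 0.0035 by edgeR). The median of the 13 was -0.11. EIF3J has 774 coding nucleotides, and was low on all 3 days and lowest at D9, as was the median of the 11 shortest members.

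Of 42 ribosome biogenesis genes 13 fell and 0 rose, with a median of -0.41, where 10.1% of all genes fell and 13.1% rose. The 4 with the largest called changes were WDR43 (-0.80), a part of the small-subunit processome, NIP7 (-0.75), which joins pre-rRNA processing, and NOP10 (-0.75) and NHP2 (-0.74) of the box H/ACA particles that direct pseudouridylation. WDR43 was at 221 and 231 CPM untreated and at 137, 143.9 and 109 CPM. Of the 78 genes for mitochondrial ribosomal proteins 23 fell and 0 rose, beside the same shares of all genes, with a median of -0.45. Their medians by day were -0.71, -0.70 and -0.11, so at D9 the 2 sets of ribosomal proteins had medians of -0.11 and -0.72.

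Of 16 genes that signal to these mRNAs or control translation initiation, 2 rose and 0 fell, with a median of 0.16. Among all genes 13.1% rose and 10.1% fell, so 2 of 16 is near the share of all genes that rose. DEPTOR, an inhibitor of mTOR, rose from 10.2 and 8.60 CPM to 20.2, 24.97 and 29.6 CPM (1.41 ± 0.20, adjusted p = 0.0046 by edgeR). PDCD4, which restrains the helicase eIF4A, rose from 13.6 and 14.6 CPM to 25.06, 25.8 and 25.02 CPM (0.84 ± 0.13, adjusted p = 0.0067 by edgeR). MYC, a driver of ribosome synthesis, was at 102 and 110 CPM untreated and at 134, 195 and 142 CPM (0.57 ± 0.20, adjusted p = 0.076 by edgeR). LARP1 was at 214 and 214 CPM untreated and at 245, 287 and 243 CPM (0.27 ± 0.17, adjusted p = 0.27 by edgeR). Kinase and phosphatase activity and translation were not measured.

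Over cells, ribosomal protein genes rose and fell together. Among 5036 genes seen in no fewer than 10% of cells in each library after thinning to 5000 UMIs, each was correlated within each library with the summed level of the other members. The mean r over the 5 libraries had a median of 0.67 among the 82 genes and of 0.01 among all other genes. RPL13 (0.84) and RPS3 (0.81) followed the sum best, and RPL7L1 (0.03), RPL39L (0.11), RPS27L (0.14) and RPL22L1 (0.22) least. The last 4 are paralogues of low level, where few UMIs per cell can limit r, which was not tested. RPS21, with a mean of 2373 CPM, also followed the sum weakly (0.27).

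Among the 12 other genes that followed the sum best were EEF1A1 (0.73), TPT1 (0.72), RACK1 (0.71), SEC61G (0.66), PPIA (0.65), MIF (0.64), FAU (0.63), GAPDH (0.63), TMSB10 (0.61), NDUFS5 (0.61) and CHCHD2 (0.60). EEF1A1, TPT1, RACK1 and FAU belong to the translation machinery or its tract-bearing mRNAs, whereas GAPDH of glycolysis and PPIA, a prolyl isomerase, are abundant mRNAs of other kinds. The lowest were mitochondrially encoded, MT-ND3 at -0.81 and MT-CO2 at -0.80 among them. The correlations share depth and mitochondrial share within each library and are a description over cells, not a test.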

How the data were processed

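Reads of a 3′ Chromium kit (v3.1) were processed by the authors with Cell Ranger 6.1.2 on GRCh38 with GENCODE 32. Captured cells had been stored frozen, those under 5000 UMIs, mitochondrial outliers and doublets were dropped, counts of the D0 captures were adjusted with ComBat-seq, and low genes were removed. The deposited values are expected counts, whole-number UMI counts per gene and cell after that adjustment, so rounding changed nothing; the other deposited columns hold cell names, gene identifiers and symbols. The adjustment draws the D0 libraries together (the median member differed between them by 0.045 on the log2 scale), so p-values may be too small; by how much was not measured. Reads shared with pseudogenes or copies may be lost, and counting is of the transcripts' 3′ ends.

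Counts were summed per library and tested with edgeR 4.0.16 (quasi-likelihood, TMM, filterByExpr, 12145 genes, 3 residual degrees of freedom, a common biological coefficient of variation of 0.171), with the 3 treated days as replicates of treatment. Levels are CPM scaled with TMM factors. All 82 members passed the filter; their smallest count, 737 for RPS27L at D3, has a 95% Poisson interval of 685 to 792. DESeq2 1.42.0 was an alternative. Lengths come from GENCODE 44 canonical transcripts, found for 82 members, and start windows from RefSeq. Scripts were tested on simulated data. Members, lists and tests were chosen with earlier results of these data known. Named members were, by rule, the 5 highest and 5 lowest changes and the 3 largest changes relative to the pool in each direction (mean of at least 20 CPM), paralogues, the 3 highest and 3 lowest levels, 8 genes of known special roles and the 3 largest D3 to D9 differences; of other lists, the largest called changes. TPT1, NPM1, EEF2, FAU, RACK1, MYC and LARP1 were named after their values were seen. Some genes are not reported here. Python 3.11.15 was used.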

Additional observations from a re-analysis of the deposited data

Results flagged for a closer look

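In 5 of the 29 named members the log2 ratio to untreated was at least 0.25 in size at D3 and at D9 with opposite signs, lower at D3 and higher at D9. The D9 ratio exceeded the D3 ratio by 1.07 for RPL7, 1.01 for RPS3, 0.94 for RPS4X, 0.89 for RPL5 and 0.68 for RPL13. Each day is 1 library, so the difference was not tested. All 5 have more than 500 coding nucleotides.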

How the results depend on the processing

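No paired analysis was possible because the untreated group has replicates 1 and 2 and each treated day only replicate 1. The number of members that fell, 15, was 18 with DESeq2 size factors, 11 with library size only, 20 with factors made without mitochondrial genes and members and 14 with no filter. It was 46 by the Wald test of DESeq2, 25 with cells thinned to 5000 UMIs, 5 with an offset for transcript length, 0 in cells under 10% mitochondrial counts and 2 (with 2 rises) relative to the pool. With each library left out in turn it ran from 0 to 80. Under these settings the number that rose was 0 except relative to the pool. The share of all genes that fell also changed with the fit. It was 10.1% in the main fit, 27.3% without D9, 8.44% in cells under 10% mitochondrial counts and 2.87% relative to the pool. No such share is given for the other settings, nor for members past the fold with library size only or the coding length offset. The median log2 fold change, -0.63, was -0.49 with library size only, -0.77 with thinned cells, -0.35 with the transcript length offset, -0.26 in cells under 10% mitochondrial counts and -0.058 relative to the pool. Of alternatives chosen after seeing the data, an offset for coding length gave 0 falls and a median of -0.27, and low-mitochondrial cells with the transcript length offset gave 1 fall and -0.21. The difference in share, -4.79 points, was -4.04 without mitochondrial counts in the denominator, -3.87 also without MALAT1, -7.92 as medians over cells, -1.70 in cells under 10% mitochondrial counts and -5.63 when thinned. Members past the fold downwards numbered 42 at D3 and 24 at D6 with library size only, 8 and 3 in cells under 10% mitochondrial counts, and 10 and 3 with the coding length offset (44 at D9); upwards, 1 at D6 in both of the last settings, and at D9 7 with library size only and 1 with the coding length offset. With each library left out in turn RPL3 ran from -0.23 (without D9) to 0.11 and RPS4X from -0.26 (without D9) to 0.26. All 6 called members among the 29 named lost the call in cells under 10% mitochondrial counts and without either untreated library. The causes were not tested. Depth did not limit the members, whose smallest count was 737; 1 library per day does.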
